A study of Mus musculus with 10 samples.

Results

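Receptors and enzymes that bring lipoproteins into cells were followed in primary cultures of mouse aortic smooth muscle at rest, after cholesterol loading, and after loading followed by high-density lipoprotein (HDL). The set was a fixed list of 8 genes, chosen with earlier results of these data known, each given by Ensembl identifier and symbol. Its scavenger receptors, apart from Scarb1, were Olr1 (ENSMUSG00000030162_at), Cxcl16 (ENSMUSG00000018920_at), Cd36 (ENSMUSG00000002944_at) and Msr1 (ENSMUSG00000025044_at). The receptors of the LDL receptor family were Vldlr (ENSMUSG00000024924_at) and Lrp1 (ENSMUSG00000040249_at), and the lipase was Lpl (ENSMUSG00000015568_at). The HDL receptor was Scarb1 (ENSMUSG00000037936_at), which is a class B scavenger receptor like Cd36. All 8 were present among the 16860 genes of the table. The cells came from thoracic aortas of C57BL/6 mice aged 8 weeks, were passaged at most 5 times, and grew with 10% fetal bovine serum. The baseline group received no stimulus. The cholesterol group was given cholesterol at 10 µg/mL for 72 h, complexed with methyl-β-cyclodextrin (1 mole to 6 moles). The HDL group had the same loading and was then held for a further 72 h with human HDL at 100 µg/mL, so its harvest came 144 h after loading began. Each group had 2 arrays, and the labels leave it unsaid whether these were separate cultures or mice, so p-values cover no more than the spread among these arrays, and that spread may be technical. Groups given the carrier alone, or kept in culture for the same times without cholesterol, were not analysed here. Carrier, time in culture and cholesterol therefore cannot be told apart.

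Values are log2 RMA values (Robust Multichip Average, a background-corrected and normalized probe summary) of Affymetrix Mouse Genome 430 2.0 arrays, with all 6 arrays normalized together by the authors. Array medians lay between 6.93 and 6.98, and replicate arrays correlated across genes by 0.9936 to 0.9977, lowest in the HDL group. Replicates differed by at least 1 on the log2 scale for 3 genes at baseline, 17 after cholesterol and 153 after HDL. A value is a property of its own probes, so levels were compared between groups for one gene and not between genes. In RNA from whole cultures, fewer cells of a type and less RNA per cell cannot be told apart. The labelled cell type could not be checked against marker genes, because only these 8 identifiers could be paired with symbols.

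Cells take up cholesterol by several routes. Receptors of the LDL receptor family bind apolipoproteins on native particles and carry them inside by endocytosis, and the LDL receptor itself is shut down when the cell is rich in sterol. Scavenger receptors bind oxidised or otherwise modified lipoproteins and are known from macrophages, where uptake through them can go on as the cell fills with cholesterol and becomes a foam cell. Lipoprotein lipase frees fatty acids from triglyceride-rich particles and can also tether particles to the cell surface, and SR-BI exchanges cholesterol with HDL without taking in the whole particle.

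Loaded and baseline cells were compared first, to ask how the uptake genes stand when smooth muscle cells are loaded, in a study of macrophage features in such cells. Olr1 and Cxcl16, which encode a pair of receptors for oxidised LDL, rose most, by 3.75 ± 0.49 and 3.33 ± 0.13 on the log2 scale (SE, n = 2 arrays per group), or 13.5-fold and 10.0-fold. Lpl, Vldlr and Lrp1 rose by less, and Scarb1, which encodes the HDL receptor SR-BI, fell. Cd36 and Msr1, the scavenger receptors best known from macrophages, did not pass the test. In all 5 of the 8 members rose and 1 fell at a Benjamini-Hochberg adjusted p under 0.05 in limma, where 10.4% of all genes were called higher and 13.1% lower (23.5% in either direction). The change was at least 1 in 4 of the called members, against 5.63% of all genes. The median change of the 8 members was 0.85, against -0.026 for all genes. Because the members were chosen with earlier results of these data known, their shares and median beside all genes are a description only.

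**Figure D1:**
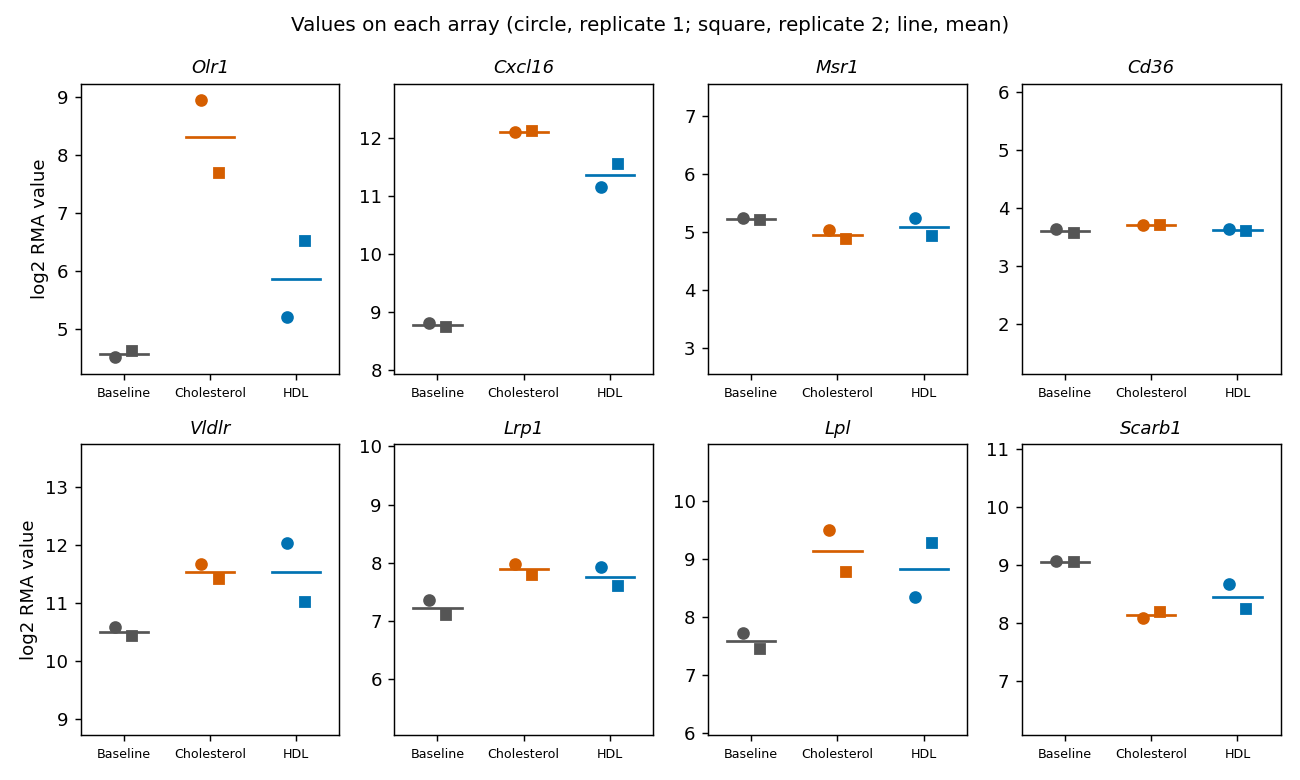
Log2 RMA value of each of the 8 genes on each of the 6 arrays (circles, replicate 1; squares, replicate 2; lines, mean of 2 arrays). Every panel spans the same height in log2 units but has its own position, so that changes and not levels can be compared between panels; Olr1 and Cxcl16 climb furthest after cholesterol, and Cd36 stays within 0.14.

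Olr1 encodes LOX-1, a C-type lectin-like receptor for oxidised LDL first described in endothelial cells. Its values were 4.52 and 4.62 on the baseline arrays and 8.94 and 7.70 on the cholesterol arrays. Both loaded arrays lay far above both baseline arrays, but they stood 1.24 apart from each other, a wider gap between replicates than in nearly all genes (100.0% of genes had a smaller one, after rounding). The change of 3.75 had a 95% interval from 2.60 to 4.91 (limma, adjusted p = 0.00197), and 35 of the 16860 genes rose further. It was 3.13 without cholesterol replicate 1 and 4.37 without cholesterol replicate 2. The log2 change thus depends by 1.24, the gap between the loaded arrays, on which of them is used. The baseline values lay below 5.01, the 25th percentile of gene means over the 6 arrays, and Olr1 passed a filter at that level through its later values. RMA compresses differences at such dim levels, so the fold and the rank of Olr1 are less certain than their interval.

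The promoter of Olr1 is shown beside that of Cd36, as the members with the largest and the smallest change after cholesterol. RefSeq windows of 250 bases before to 50 after an annotated start were matched by symbol for 4 of the 8 members (Cd36, Olr1, Lrp1 and Vldlr), with 5 windows in all, in build GRCm38.p6. Capitals mark matches to a short motif list searched on both strands.
Olr1, chr6:129507116-129507415, minus strand: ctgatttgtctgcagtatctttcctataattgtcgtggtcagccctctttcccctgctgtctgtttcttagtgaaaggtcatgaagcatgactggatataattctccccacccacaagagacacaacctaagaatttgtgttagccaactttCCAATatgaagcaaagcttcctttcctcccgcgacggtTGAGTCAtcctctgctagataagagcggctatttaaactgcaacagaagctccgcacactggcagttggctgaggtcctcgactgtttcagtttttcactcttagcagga
Cd36, chr5:17835847-17836146, minus strand: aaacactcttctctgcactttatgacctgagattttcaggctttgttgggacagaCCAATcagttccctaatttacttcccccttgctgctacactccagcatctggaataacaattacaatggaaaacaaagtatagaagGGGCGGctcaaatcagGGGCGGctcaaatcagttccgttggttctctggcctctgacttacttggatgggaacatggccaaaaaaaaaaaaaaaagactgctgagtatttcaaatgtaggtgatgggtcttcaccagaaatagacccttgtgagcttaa
The Olr1 window held an AP-1 sequence (TGANTCA) with its first letter at position -60, where 1 is the annotated start, and a CCAAT box (CCAAT) at -98. The AP-1 letters were found in this window alone of the 5, and in 7.81% of all 32851 mouse windows of that length. The Cd36 window held a CCAAT box at -195 and a pair of GC boxes (GGGCGG) at -109 and -93. CCAAT was found in 37.4% and GGGCGG in 35.7% of all windows, each in 3 of the 5 member windows. The matches did not overlap one another. The letters of a TATA box (TATAAA) and of an E-box (CACGTG) were in none of the 5 windows, and in 13.6% and 7.15% of all windows.

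Cxcl16 encodes a chemokine anchored in the membrane, also named SR-PSOX, which binds oxidised LDL while attached and attracts CXCR6-bearing T cells once shed. Its values were 8.82 and 8.75 at baseline and 12.11 and 12.12 after cholesterol. The loaded arrays were almost equal, and every loaded array stood at least 3.28 above every baseline array. The change of 3.33 had a 95% interval from 3.01 to 3.65 (limma, adjusted p = 1.81e-05). In that comparison 49 genes rose further. Cxcl16 was also the member called when the one-way test per gene that the design text names was run on the authors' separate normalization of the 4 baseline and cholesterol arrays (adjusted p = 0.0423); that test called 38 genes in all and none of the other 7 members. This run was chosen after seeing the data; on the same 4 arrays as normalized with the HDL arrays, the planned one-way test did not call Cxcl16 (adjusted p = 0.0727) or any other member.

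Cd36 encodes a class B scavenger receptor that takes up oxidised LDL and long-chain fatty acids. Its values were 3.65 and 3.57 at baseline and 3.72 and 3.71 after cholesterol, and the difference of 0.10 had a 95% interval from -0.10 to 0.30 (adjusted p = 0.472). Its mean over the 6 arrays, 3.65, also lay below 5.01, and Cd36 was the one member left out when dim genes were filtered. Msr1 encodes the class A scavenger receptor for acetylated and oxidised LDL. Msr1 values were 5.23 and 5.20 at baseline and 5.03 and 4.87 after cholesterol, a difference of -0.27 with an interval from -0.56 to 0.02 (adjusted p = 0.179). The arrays of both groups did not overlap for either gene, which was true of all 8 members and of 63.5% of all genes. At such dim levels the narrow interval of Cd36 describes its probes and sets no firm limit on its RNA. Msr1, with a mean of 5.08 over the 6 arrays, lay close to 5.01, so its interval sets no firm limit either.

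Vldlr, a receptor of the LDL receptor family for triglyceride-rich particles that carry apolipoprotein E, rose from 10.59 and 10.43 to 11.67 and 11.42. That is 1.03 ± 0.29 on the log2 scale (SE), or 2.04-fold (limma, adjusted p = 0.0432). Lrp1, a large endocytic receptor of the same family that takes up remnant particles and aggregated LDL in smooth muscle cells, rose from 7.35 and 7.09 to 7.98 and 7.79. The change was 0.67 ± 0.15 (SE), or 1.59-fold (adjusted p = 0.0175). The lower loaded array of each gene stayed above the higher baseline array, by 0.83 for Vldlr and 0.44 for Lrp1.

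Lpl, the lipase that works with these receptors at the cell surface, had values of 7.72 and 7.45 at baseline and 9.49 and 8.77 after cholesterol. It rose by 1.55 ± 0.33 (SE), or 2.92-fold (limma, adjusted p = 0.0158), with a gap of 0.72 between the loaded arrays that was wider than in 99.6% of genes. Scarb1 was the member that moved the other way: its values were 9.07 and 9.05 at baseline and 8.09 and 8.19 after cholesterol. The arrays of each group were within 0.10 of each other and the groups stood 0.86 apart at their nearest. Scarb1 fell by 0.92 on the log2 scale, with an SE of 0.14 and a 95% interval from -1.25 to -0.59 (adjusted p = 0.00394), so that the baseline level was 1.89-fold that of loaded cells.

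**Figure D2:**
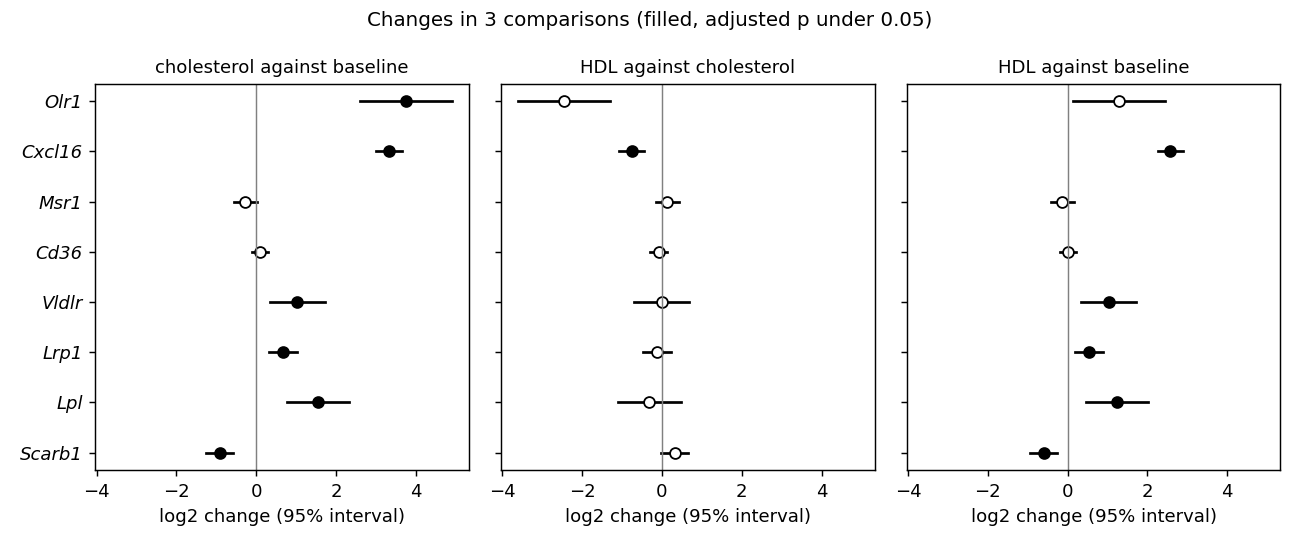
Log2 change of each gene with its 95% interval in the 3 comparisons, from one limma fit of 6 arrays (filled points, adjusted p under 0.05 over all genes; open points, not called). After cholesterol 6 genes are called, between HDL and cholesterol 1 (Cxcl16), and between HDL and baseline 5.

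The calls of Olr1, Cxcl16 and Scarb1 after cholesterol held in all 6 limma fits that left out one array, but those of the smaller rises did not. The Vldlr call was lost without baseline replicate 1 or 2 (adjusted p = 0.152 and 0.203) and without cholesterol replicate 1 or 2 (adjusted p = 0.214 and 0.111). That of Lpl was lost without baseline replicate 1 or 2 (adjusted p = 0.0747 and 0.113) and without cholesterol replicate 1 (adjusted p = 0.105), and that of Lrp1 when either baseline replicate 2 or cholesterol replicate 1 was left out (adjusted p = 0.123 and 0.121). The count of members called was 3 without baseline replicate 2 or cholesterol replicate 1, and the count over all genes, 3960 with every array, dropped to 1931 and 1861 when baseline replicate 1 or 2 was left out, and to 1921 and 2389 for cholesterol replicate 1 or 2. In the authors' separate normalization the changes of the 8 members differed from these by at most 0.05, and the same 6 members were called. More genes were called there over the whole table, 4919 against 3960. The fits without HDL replicate 1 or 2 were the same one, equal to a fit of the baseline and cholesterol arrays alone. In limma on those arrays alone, adjusted p was 0.000691 for Vldlr, 0.00212 for Lpl and 0.00573 for Lrp1. The SE of Vldlr was 0.11 there, against 0.29 with the HDL arrays. A one-way test per gene on the same arrays called none of these 3 (adjusted p = 0.12, 0.188 and 0.184).

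**Figure D3:**
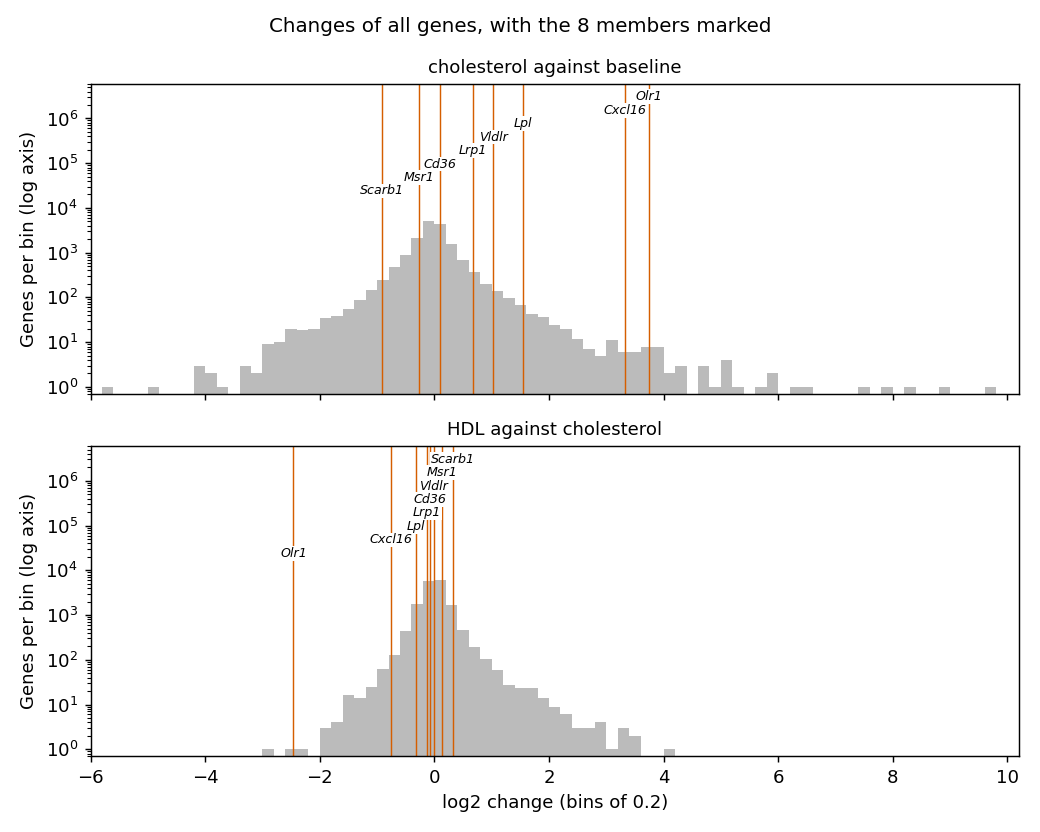
Histogram of the log2 changes of all 16860 genes in bins of 0.2 (log axis of genes per bin), with the 8 members as vertical lines, for cholesterol against baseline (top) and HDL against cholesterol (bottom). Olr1 and Cxcl16 lie in the right tail after cholesterol, and Olr1 lies at the left end after HDL, where 1 gene fell further.

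Loaded cells kept with HDL were then compared with loaded cells harvested before HDL, to ask how the uptake genes stand once an acceptor of cholesterol is present. Cxcl16 fell, by 0.76 on the log2 scale (SE 0.13), and no other member passed the test. Olr1 was lower by much more, with a difference of -2.46 ± 0.49 (SE), but its arrays were uneven and it missed the threshold. The 1 member called compares with 2.73% of all genes called in either direction and 0.949% called lower. The median change of the 8 members was -0.11, against 0.004 for all genes. Harvest came 72 h later with HDL than without it, and that time and HDL cannot be told apart.

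Cxcl16 stood at 12.11 and 12.12 in loaded cells and at 11.16 and 11.55 after HDL. Both HDL arrays were lower than both cholesterol arrays, by 0.55 to 0.96. The fall had a 95% interval from -1.07 to -0.44 (limma, adjusted p = 0.037), and the level before HDL was 1.69-fold that after it. The call was lost without cholesterol replicate 1 (adjusted p = 0.238), without cholesterol replicate 2 (adjusted p = 0.174) and without baseline replicate 1 or 2 (adjusted p = 0.113 for each), where the change itself remained between -0.76 and -0.75. A baseline array left by itself carries no information on the spread, so these fits equal one on the 4 cholesterol and HDL arrays.

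Olr1 stood at 8.94 and 7.70 in loaded cells and at 5.21 and 6.52 after HDL. The groups did not overlap, and the nearest arrays were 1.19 apart, but replicates differed by 1.24 before and by 1.31 after HDL. The difference of -2.46 had a 95% interval from -3.61 to -1.31 and an adjusted p of 0.0524 in limma (unadjusted p = 0.00148). Only 1 of the 16860 genes had a larger negative change in this comparison. The size depended on single arrays. Without HDL replicate 2 it was -3.11 and was called (adjusted p = 0.00587), and without HDL replicate 1 it was -1.81 (adjusted p = 0.0858). Without cholesterol replicate 1 or 2 it was -1.84 and -3.08 (adjusted p = 0.284 and 0.0736). At -2.46 the adjusted p was 0.147 with the 4 cholesterol and HDL arrays alone and 0.076 with replicate number as a block. It was 0.0444 with an intensity trend in the prior, and 0.0496 with the arrays centred on their medians, where the change was -2.48.

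Scarb1 stood at 8.09 and 8.19 in loaded cells and at 8.67 and 8.25 after HDL. Both HDL arrays were higher than both cholesterol arrays, the lower one by 0.06, and the difference of 0.32 had a 95% interval from -0.02 to 0.65 (adjusted p = 0.302). It rested mostly on one HDL array: without HDL replicate 1 it was 0.11 (adjusted p = 0.705), and without HDL replicate 2 it was 0.52 and was called (adjusted p = 0.0266). Cd36 differed by -0.08, and its groups also did not overlap (3.65 and 3.61 after HDL). In all 4 of the 8 members had groups that did not overlap, against 47.0% of all genes.

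The other 4 members overlapped between the groups. Lpl had values of 8.35 and 9.28 after HDL, on either side of the lower cholesterol array, and differed by -0.32 with an interval from -1.10 to 0.47. Vldlr had values of 12.04 and 11.03, above and below both cholesterol arrays, and differed by -0.01 with an interval from -0.70 to 0.69. The interval for Vldlr is therefore wide enough to hold a change of over 1.5-fold in either direction. Lrp1 (7.92 and 7.59) differed by -0.13 and Msr1 (5.23 and 4.93) by 0.13, with adjusted p values of 0.728 and 0.649.

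The HDL arrays did not stand apart from each other in one direction for all members. Replicate 1 was lower than replicate 2 for Olr1, Cxcl16 and Lpl, by 1.31, 0.39 and 0.93. It was higher for Vldlr, Scarb1, Lrp1, Msr1 and Cd36, by 1.01, 0.41, 0.33, 0.30 and 0.05. The gaps of Olr1, Vldlr and Lpl were wider than in 99.7%, 99.1% and 98.9% of genes on the same arrays. For Olr1, Cxcl16, Lpl and Scarb1, replicate 1 was thus the array nearer to baseline, while for Vldlr and Lrp1 it was the array farther from it.

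**Figure D4:**
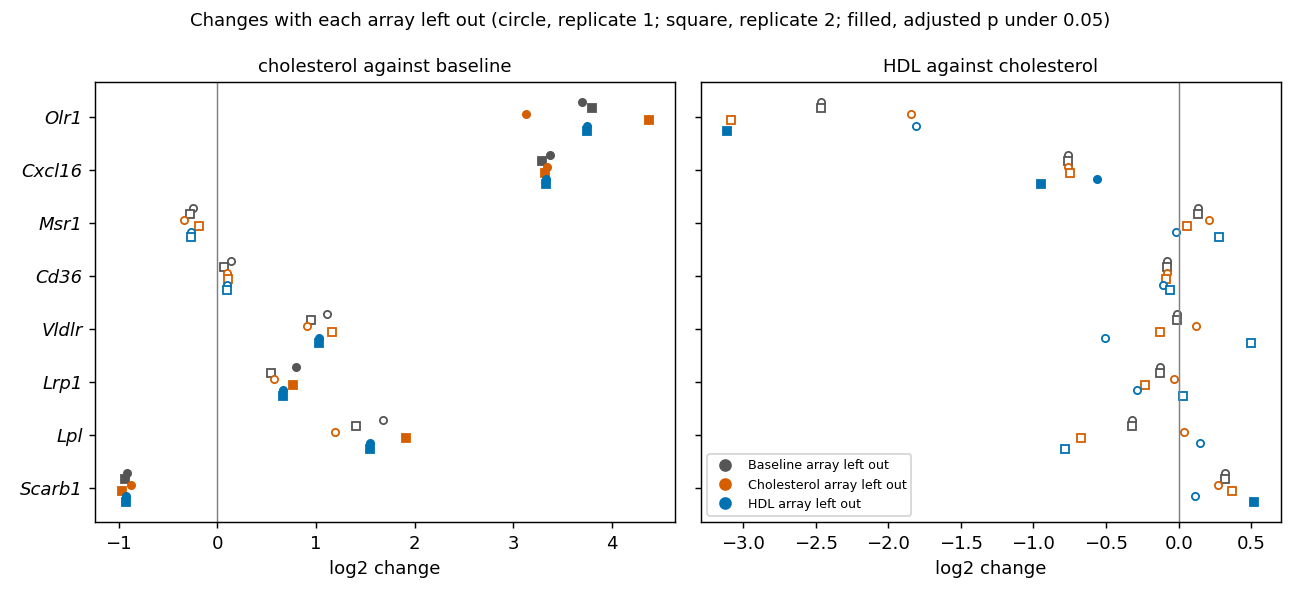
Log2 change of each gene when one array is left out of the limma fit, for cholesterol against baseline (left) and HDL against cholesterol (right); the colour gives the group of the array left out, circles replicate 1 and squares replicate 2, and filled symbols an adjusted p under 0.05. Olr1, Cxcl16 and Scarb1 stay filled throughout on the left, and on the right the change of Vldlr runs from -0.51 to 0.50 as the HDL arrays are left out in turn.

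Cells after HDL were last compared with baseline cells, a comparison that shares the baseline arrays with the first. Cxcl16 remained 2.57 ± 0.13 (SE) above baseline, or 5.95-fold, and Lpl, Vldlr and Lrp1 were higher by 1.23 ± 0.33, 1.03 ± 0.29 and 0.54 ± 0.15 (SE). Scarb1 remained below baseline, with a difference of -0.60 ± 0.14 (SE). Olr1, 5.21 and 6.52 after HDL against 4.52 and 4.62 at baseline, did not overlap but missed the threshold, with a difference of 1.29 ± 0.49 (SE; adjusted p = 0.115). In all 4 of the 8 members were called higher and 1 lower, where 9.13% of all genes were called higher, 10.9% lower and 20.0% in either direction.

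Of these 5 calls, that of Cxcl16 was the firmest in limma (adjusted p = 4.56e-05), with a change between 2.38 and 2.77 when any one array was left out. The one-way test per gene did not call it (adjusted p = 0.142). In limma the other 4 lay nearer the threshold, with adjusted p values of 0.0248 for Scarb1, 0.041 for Lpl, 0.0432 for Lrp1 and 0.0496 for Vldlr. Without baseline replicate 1 or 2 each of these 4 was lost (adjusted p from 0.0854 to 0.238), so that Cxcl16 alone was called. Without cholesterol replicate 1 or 2 the calls of Scarb1, Lrp1 and Vldlr were lost (adjusted p = 0.0505, 0.0689 and 0.0848). Without HDL replicate 1 the Lrp1 call was lost (adjusted p = 0.142) and Olr1 was called, at 1.95 above baseline (adjusted p = 0.0213), while without HDL replicate 2 Olr1 was at 0.64 (adjusted p = 0.335). Without HDL replicate 2 the Lpl call was lost, at 0.77 (adjusted p = 0.0839), and with replicate number as a block the Lpl call was lost too (adjusted p = 0.0579). Centring the arrays on their medians ended the calls of Lrp1 and Vldlr (adjusted p = 0.0558 and 0.056). Cd36 and Msr1 differed from baseline by 0.02 and -0.13 (adjusted p = 0.913 and 0.521), and for both the groups overlapped. The other 6 members did not overlap, against 59.1% of all genes.

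The side by side values give the order of the group means for each member. Olr1 went from 4.57 through 8.32 to 5.86, Cxcl16 from 8.78 through 12.11 to 11.36, and Lpl from 7.59 through 9.13 to 8.82. Lrp1 went from 7.22 through 7.89 to 7.76 and Cd36 from 3.61 through 3.71 to 3.63. Vldlr went from 10.51 to 11.54 and was again 11.54 after HDL. For Scarb1 the order was inverted, from 9.06 through 8.14 to 8.46, as it was for Msr1, from 5.22 through 4.95 to 5.08. Neighbouring means of loaded and HDL-treated cells were set apart by the test for Cxcl16 alone, and neighbouring means of baseline and HDL-treated cells for Cxcl16, Lpl, Vldlr, Lrp1 and Scarb1.

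The genes most like a member were taken by the distance between profiles over the 6 arrays after subtracting each gene's mean, a description in which all profiles share the same arrays. For Cxcl16 the nearest was ENSMUSG00000031520_at at a distance of 0.24 log2 units, with group means of 7.12, 10.40 and 9.77 at baseline, after cholesterol and after HDL. For Olr1 the nearest was ENSMUSG00000015340_at at a distance of 1.35, with group means of 4.44, 7.82 and 6.03. The profile of Olr1 thus had no match as close as that of Cxcl16. The distance is not scaled to the gap between replicates, and Olr1 replicates stood 1.24 apart after cholesterol and 1.31 apart after HDL. These identifiers are not paired with symbols in the sources used here.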

How the data were processed

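Probe intensities were normalized with RMA by the authors and summarised per gene through a University of Michigan mapping to Ensembl (release 59), per the labels' design text. The values deposited are on the log2 scale, and RMA's version is not given in the sources used here. The table has 10 columns for 6 arrays, since 4 baseline and cholesterol arrays were normalized both separately (analysis I) and with the HDL arrays (analysis II). Analysis II was used, and the other version was an alternative and not further replicates. The number of arrays limits the precision. No detection calls were used.

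One limma 3.58.1 fit (R 4.3.3, functions lmFit and eBayes, two-sided tests) held the 3 groups of 2 arrays, with 3 residual degrees of freedom and a prior of 4.03, and Benjamini-Hochberg adjustment over 16860 genes at 0.05. Fits were tested on simulated data. The members and lists were chosen with earlier results of these data known. All 8 members are named; the 2 genes nearest in profile were sought for members whose group means span at least 1, and because their identifiers lack symbols only the nearest of Olr1 and of Cxcl16 is printed. The reference table matched 0 identifiers to symbols, so 5 pathway lists and 5 marker lists fixed by symbol were not used. Alternatives were analysis I, the 2 groups alone, a one-way test per gene, an intensity trend, a filter on dim genes, median centring, the replicate block and leaving out each array.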

Additional observations from a re-analysis of the deposited data

How the results depend on the processing

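With 2 arrays per group, calls rest on a spread pooled over genes and groups. The one-way test per gene, which does not pool it over genes, called 3 genes and 0 members for cholesterol against baseline (4746 genes and 4 members at an unadjusted p under 0.05), and 0 genes and 0 members in both comparisons of HDL-treated cells (at an unadjusted p under 0.05, 1577 genes and 0 members for HDL against cholesterol, and 3391 genes and 1 member for HDL against baseline); in analysis I, an alternative chosen after seeing the data, it called 38 genes and 1 member. With the 2 groups alone, HDL against cholesterol called 145 genes and 0 members, and HDL against baseline 2670 and 2. An intensity trend gave 526 genes and 2 members for HDL against cholesterol. Median centring gave 466 genes and 2 members there. For HDL against baseline it gave 3577 and 3 (3370 and 5 uncentred), and -0.02 for Cd36, the opposite sign to the 0.02 reported. With replicate number as a block, cholesterol against baseline called 3788 genes and 6 members. HDL against cholesterol then called 392 and 1, and HDL against baseline 3285 and 4. The block ended 1 member's call, that of Lpl against baseline after HDL. The arrays share only a number. Deviations of same-numbered arrays from the group means correlated by 0.016 (baseline and cholesterol), 0.005 (baseline and HDL) and 0.133 (cholesterol and HDL). These values do not show whether the arrays were paired.

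When arrays were left out one at a time, with any array left by itself taken to vary as the rest do, cholesterol against baseline called 1861 (without baseline replicate 2) to 4915 genes and 3 to 6 members. HDL against cholesterol called 74 (without cholesterol replicate 1) to 1656 genes (without HDL replicate 2) and 0 to 3 members, and HDL against baseline 1263 (without baseline replicate 2) to 4256 genes (without HDL replicate 2) and 1 to 5 members. Signs turned only among differences that were not called. For HDL against cholesterol they ran from -0.02 (without HDL replicate 1) to 0.28 for Msr1, from -0.29 to 0.03 (without HDL replicate 2) for Lrp1, from -0.51 to 0.50 for Vldlr (0.12 without cholesterol replicate 1 and 0.50 without HDL replicate 2), and from -0.78 to 0.15 for Lpl (0.04 without cholesterol replicate 1 and 0.15 without HDL replicate 1). For HDL against baseline they ran from -0.02 (without baseline replicate 2) to 0.06 for Cd36, with -0.01 without HDL replicate 1, and from -0.29 to 0.02 (without HDL replicate 2) for Msr1. Over all alternatives for single members, 233 values kept direction and side of the threshold, 53 lost the call, 5 gained it and 10 turned sign. These values are not separate checks, because leaving out either array of the group not compared repeats the fit of the 2 groups alone. Differences that were not called and stayed so count among those kept. The cause of the lost, gained and turned values was not tested.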
